A study of Mus musculus with 12 samples.

Results

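The kinesins, the subunits of cytoplasmic dynein and dynactin, and a group of microtubule regulators were chosen by gene symbol. The rule took symbols that begin with Kif and a digit, symbols of the dynein series Dync1, Dync2, Dynll, Dynlr and Dynlt, the dynactin series Dctn, Clasp1, Clasp2, the Mapre series, and Ckap5, Numa1, Map4 and Psrc1. Of the 51981 symbols in the 2 count tables, 82 met it, of which 78 were in the footprint table, 73 in the RNA table, 69 in both and 4 in the RNA table only. By role they were 41 heavy motor chains (the kinesins, Dync1h1 and Dync2h1), 4 dynein intermediate chains, 3 dynein light intermediate chains, 15 short dynein light chains, 6 dynactin subunits, 9 microtubule regulators and 4 other symbols (pseudogenes and an opposite-strand gene). The comparison of most interest set the heavy motor chains, which are long proteins, against the short light chains.

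Motor proteins walk along microtubules using ATP. Kinesins mostly move toward the growing end and carry vesicles, organelles or spindle parts, whereas cytoplasmic dynein moves toward the other end. A dynein is built on a very long heavy chain that holds the motor, with intermediate and light intermediate chains that bind cargo, short light chains of the LC8, roadblock and Tctex families on the intermediate chains, and dynactin as a cofactor. Embryonic stem cells divide fast, and in dividing cells many of these genes serve the mitotic spindle.

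Ribosome footprints, the pieces of mRNA that a translating ribosome shields from nuclease, were counted per gene in 8 libraries of ES-E14TG2a, a mouse embryonic stem cell line. All carried a dTAG degron on eRF1, the release factor that ends translation at stop codons. The groups were Gcn2 knockout cells given 500 nM dTAG-13 for 1 h, untreated Gcn2 knockout cells, wild-type cells given the same dose for the same time, and untreated wild-type cells, with 2 biological replicates (A and B) each. RNA was counted in 4 further libraries, from treated and untreated wild-type cells only. dTAG-13 brings a ubiquitin ligase to the tagged protein, and Gcn2 (gene Eif2ak4) is a kinase that dampens translation initiation under stress. All cells grew in medium that held LIF, a GSK3 inhibitor and a MEK inhibitor. The labels name neither a vehicle control nor treated cells without the tag, and do not say whether a genotype is a single clone, so effects of the compound, its handling or a clone cannot be told apart from those of eRF1 loss or Gcn2 loss. What separated the replicates is not stated beyond the word biological, and p-values below measure the spread between these libraries.

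Totals ran from 7874804 counts (treated wild-type replicate A, the shallowest) to 19691716 for footprints and from 17462458 to 24256097 for RNA. The 82 genes held 0.444% to 0.522% of the footprints and 0.6005% to 0.614% of the RNA counts. Eif2ak4 had 3.10 and 5.36 footprint CPM (counts scaled to library size) in treated and 2.46 and 2.33 CPM in untreated knockout cells, against 34.0 and 33.2 CPM in treated and 27.7 and 29.4 CPM in untreated wild-type cells, which is the order the labels give. The 2 replicates of each group were further apart than counting error allows, most in untreated wild-type cells (chi-squared per degree of freedom 25.2). All 10 stem cell markers looked up averaged at least 10 CPM in each footprint group, and their summed level was 9880 to 10890 CPM. Fibroblast markers summed to 7.59 to 14.4 CPM and primitive endoderm markers to 3.01 to 5.70 CPM. The neuron and cilium list summed to 40.9 and 44.8 CPM in treated against 21.1 and 41.95 CPM in untreated knockout cells, and to 62.5 and 66.7 CPM in treated against 38.2 and 57.4 CPM in untreated wild-type cells. Of its 9 genes, 3 or 4 were at 0 in each footprint group and only Tubb3, a tubulin, averaged 10 CPM or more. The part of that list in the results below was not tested.

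The start regions of 6 genes, picked after their values had been seen, are shown to let a cell-cycle element known as the CHR, with the letters TTTGAA, be read beside the counts. The set holds Dync1h1 and Ckap5, which rose most firmly in wild-type cells, and 4 mitotic kinesins. Each sequence runs from 100 bases before to 30 bases after a transcript start on RefSeq's GRCm38.p6 annotation, 5′ to 3′ on the gene's strand. Capitals mark CHR letters (TTTGAA, or TTCAAA for the other strand) and the CCAAT box (CCAAT, or ATTGG for the other strand). Their places are chr12:110601295-110601424 (plus strand), chr2:91526662-91526791 (plus strand), chrX:100625965-100626094 (plus strand), chr19:37376282-37376411 (plus strand), chr19:34922258-34922387 (plus strand) and chr9:61946770-61946899 (minus strand) in the order printed.
Dync1h1: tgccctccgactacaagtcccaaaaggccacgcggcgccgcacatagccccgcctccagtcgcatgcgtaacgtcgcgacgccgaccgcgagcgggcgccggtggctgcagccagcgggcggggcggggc
Ckap5: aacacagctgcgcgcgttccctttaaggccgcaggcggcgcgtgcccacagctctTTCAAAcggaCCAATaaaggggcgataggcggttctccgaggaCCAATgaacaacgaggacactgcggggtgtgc
Kif4: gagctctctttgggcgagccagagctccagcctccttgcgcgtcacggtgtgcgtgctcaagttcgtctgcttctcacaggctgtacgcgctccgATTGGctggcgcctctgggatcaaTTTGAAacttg
Kif11: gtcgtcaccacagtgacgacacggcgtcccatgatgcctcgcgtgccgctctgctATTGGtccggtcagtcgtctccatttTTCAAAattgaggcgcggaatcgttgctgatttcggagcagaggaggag
Kif20b: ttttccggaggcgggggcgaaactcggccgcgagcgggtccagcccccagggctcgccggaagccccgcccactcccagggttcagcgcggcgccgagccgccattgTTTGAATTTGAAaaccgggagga
Kif23: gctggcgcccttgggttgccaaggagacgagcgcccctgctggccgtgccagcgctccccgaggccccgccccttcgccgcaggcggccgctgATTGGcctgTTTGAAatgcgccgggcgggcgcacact
Dync1h1 has neither motif in this stretch, Ckap5, Kif4, Kif11 and Kif23 have both, and Kif20b has a pair of CHR matches end to end and no CCAAT box. Among mitotic kinesins not printed, Kif15, Kif18b and Kif22 held the CHR letters in the same stretch, and Kif2c, Kif14 and Kif18a did not. Over the longer window of 250 bases before to 50 after the start, 54 of the 82 genes had a promoter in the table. Of 10 mitotic kinesins with a promoter there, 9 held the CHR letters on either strand (90%), against 1 of 11 transport kinesins (9.09%), 0 of 6 short light chains and 20.2% of all 27025 genes. CCAAT was present in 6 of the 10 mitotic kinesins (60%), 3 of the 11 transport kinesins (27.3%), 3 of the 6 short light chains (50%) and 41.1% of all genes. The TOP start, a C at the first transcribed base and 4 further C or T bases, was found in 0 of the 54 and in 3.01% of all genes. The kinesins were split into mitotic and transport motors by textbook role after their values had been seen, so the split carries no test. A letter match is a description of these windows, not a sign that a factor binds there.

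In wild-type cells treated with dTAG-13, 4 genes of the group gained footprints and none lost them: Dync1h1, the motor chain of cytoplasmic dynein, Ckap5, a tubulin polymerase at growing microtubule ends, Kif13b, a transport kinesin, and Kif4, a motor that binds chromosomes and the central spindle. All calls here are edgeR quasi-likelihood tests with Benjamini-Hochberg adjustment over 12267 genes, at an adjusted p under 0.05. The filter on low counts left 59 of the 82 genes, of which 6.78% rose, beside a background of 2.94% of all genes tested that rose and 1.94% that fell. At an unadjusted p under 0.05 there were 16 of the 59, of which 14 were above 0 and 2 below, beside 2335 of all 12267 genes (1233 above and 1102 below). DESeq2 called 7 that rose and 0 that fell, and over all genes it called 775 in either direction, against 599 by edgeR.

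Dync1h1 had 276 and 243 CPM in treated wild-type cells, against 117 and 123 CPM in untreated ones. Both treated libraries lay well above both untreated ones, by more than the replicates of either group differed. The log2 change was 1.12 (SE 0.141, adjusted p = 0.00171), a 2.17-fold rise. The heavy chain of the ciliary dynein, Dync2h1, had 12.5 and 9.43 CPM, against 6.74 and 6.53 CPM. Its groups did not overlap either, but its log2 change of 0.70 (SE 0.255) had an adjusted p of 0.146.

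Mitotic kinesins, the 11 motors that serve the spindle and midbody, all had a log2 change above 0 in treated wild-type cells, and 1 of them, Kif4, passed the test. Their median log2 change was 0.36 and their range 0.01 to 0.82, beside a median of -0.01 for all genes tested, of which 48.8% were above 0. In 9 of the 11 both treated libraries were above both untreated ones, which holds for 22.3% of all genes tested, while both were lower in 22.8%. This list and that of the transport kinesins were drawn up after the values had been seen, so such counts depend on who was listed and carry no test. Without the filter on low counts, or without untreated wild-type replicate A, Kif11 turned to just below 0, and 10 of the 11 were then above 0. Kif4 had 54.5 and 60.8 CPM in treated wild-type cells, against 27.2 and 38.3 CPM in untreated ones, and its groups did not overlap. Its log2 change was 0.82 (SE 0.203, adjusted p = 0.0398), but the call was lost in 5 of the 8 fits that left out a library, with adjusted p from 0.0733 to 0.199 there.

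Kif23, a subunit of centralspindlin, which bundles microtubules at the midzone, had 95.9 and 136 CPM in treated wild-type cells, against 55.4 and 85.7 CPM in untreated ones. Replicate B was the higher in both groups, and the log2 change of 0.72 (SE 0.208) had an adjusted p of 0.0758. Kif20b, a motor of cytokinesis, had 104 and 117 CPM in treated cells, against 65.3 and 83.4 CPM in untreated ones. These groups were also apart, and a log2 change of 0.57 (SE 0.154) gave an adjusted p of 0.0529. Kif15, which can share the work of Kif11 in the spindle, had 90.7 and 83.6 CPM against 67.7 and 61.9 CPM, with a log2 change of 0.43 (SE 0.145, adjusted p = 0.119). Kif11 itself, the motor that pushes spindle poles apart, had 183 and 183 CPM in treated cells, against 172 and 191 CPM in untreated ones. Its treated values lay between the untreated ones, and its log2 change was 0.01 (SE 0.133, adjusted p = 0.977). DESeq2 called Kif23 and Kif20b along with Kif2c, a depolymerase at centromeres.

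Transport kinesins were mixed: 13 of the 15 were tested, 5 had a log2 change above 0 and 8 below, and the median was -0.04. Kif13b, which carries vesicles toward the cell edge, had 80.7 and 85.4 CPM in treated wild-type cells, against 42.3 and 57.0 CPM in untreated ones. Its log2 change was 0.74 (SE 0.144, adjusted p = 0.0119), and the call was lost without treated wild-type replicate B (adjusted p = 0.0559) or untreated wild-type replicate A (adjusted p = 0.0808), within a range of 5.08e-06 to 0.106 over all alternatives. Kif5b, the main heavy chain of conventional kinesin outside neurons, had 137 and 136 CPM in treated cells, against 186 and 171 CPM in untreated ones. Kif1b, a carrier of mitochondria and vesicles, had 25.7 and 22.0 CPM against 30.9 and 32.8 CPM. Both stood lower in each treated library, with log2 changes of -0.39 for Kif5b (SE 0.119, adjusted p = 0.0878) and -0.42 for Kif1b (SE 0.147, adjusted p = 0.126), so neither passed. Kif21a had only 1.06 and 0.929 CPM in treated against 1.099 and 1.28 CPM in untreated cells, too few counts for more than a log2 change of -0.28 with an SE of 0.3795.

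**Figure D1:**
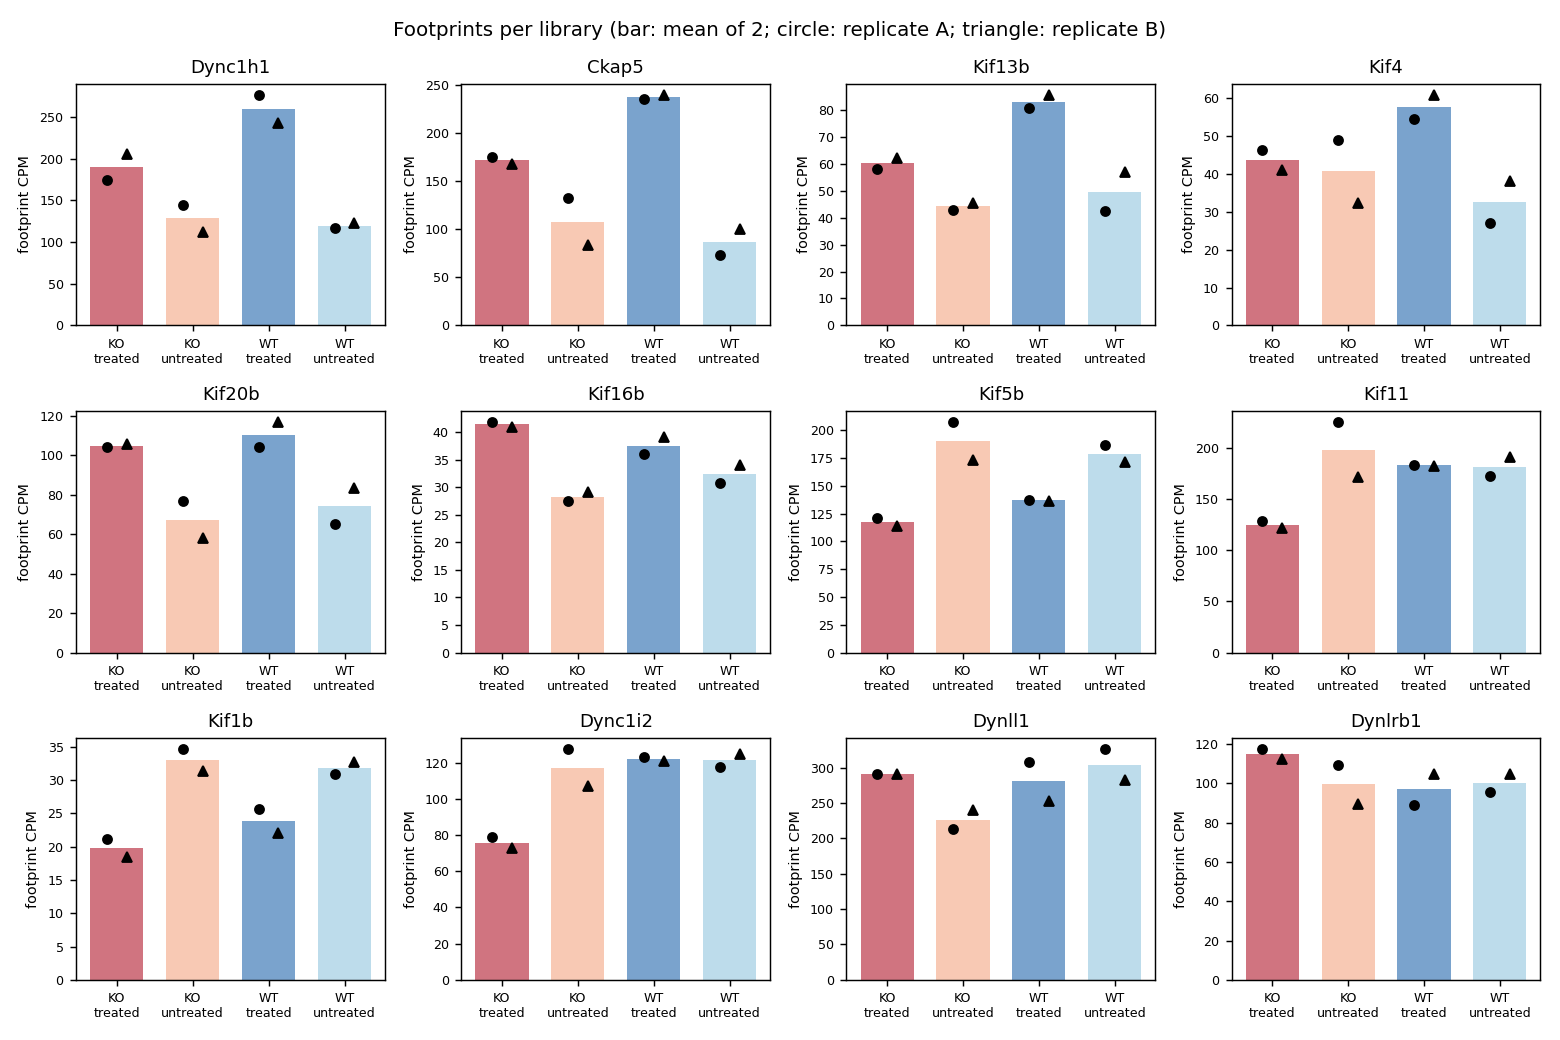
Footprint CPM (vertical axes, each from 0) of 12 genes in the 4 footprint groups, with bars at the mean of 2 libraries, circles for replicate A and triangles for replicate B. Dync1h1 and Ckap5 are higher in treated than in untreated cells of both genotypes, with the wider gap in wild type, while Kif11 and Dync1i2 are lower in treated knockout cells and level in wild-type cells.

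None of the smaller dynein chains passed the test in wild-type cells, where the heavy chain rose. Dync1i2, the intermediate chain that joins cargo and light chains to the heavy chain, had 123 and 121 CPM in treated cells, against 118 and 125 CPM in untreated ones. The groups overlapped and the log2 change was 0.01 (SE 0.120, adjusted p = 0.976). The ratio of Dync1h1 to Dync1i2 footprints in the same library was therefore 2.24 and 2.01 in treated wild-type cells, against 0.991 and 0.983 in untreated ones. In knockout cells, where Dync1i2 itself fell (given below), that ratio was 2.22 and 2.82 in treated against 1.14 and 1.05 in untreated libraries. In RNA from wild-type cells it was 7.11 and 6.79 in treated against 5.54 and 6.79 in untreated libraries, with overlapping groups. Dync1h1 over Dynll1, a short light chain, was 0.8955 and 0.9585 in treated against 0.3579 and 0.4341 in untreated wild-type libraries. In knockout libraries it was 0.6009 and 0.7067 against 0.6799 and 0.4669, with overlapping groups. Dync1h1 over the light chain Dynlrb1 was 3.094 and 2.311 against 1.222 and 1.171 in wild-type libraries. In knockout libraries it was 1.489 and 1.824 against 1.327 and 1.25. The size of each ratio mixes level with mRNA length, so it is read across libraries only. The light intermediate chain Dync1li1, which binds cargo adaptors, had 189 and 205 CPM in treated against 166 and 174 CPM in untreated wild-type cells, a log2 change of 0.21 (SE 0.109, adjusted p = 0.315).

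None of the short light chains passed the test in wild-type cells. Of 15 symbols 6 were tested, 2 had a log2 change above 0 and 4 below, their range was -0.29 to 0.10, and the groups overlapped in 5 of the 6. Of all genes tested 48.8% were above 0, 22.3% had both treated libraries above both untreated ones and 22.8% had both below. None of the 6 light chains had an unadjusted p under 0.05, and DESeq2 called none of them. Dynll1, the LC8 light chain that also binds many other proteins, had 308 and 253 CPM in treated wild-type cells, against 326 and 282 CPM in untreated ones. Its log2 change was -0.12 (SE 0.128, adjusted p = 0.689), and without treated replicate B it was 0.02. Its close relative Dynll2 had 182.3 and 131 CPM against 187 and 118 CPM, so the replicates of a group differed far more than the groups did. The roadblock chain Dynlrb1 had 89.3 and 105 CPM against 95.5 and 105 CPM, the Tctex chain Dynlt1b had 13 and 9.86 CPM against 9.74 and 11.4 CPM, and Dynlt3 of the same family had 9.82 and 8.07 CPM against 11.7 and 9.87 CPM. Only Dynlt3 had both treated libraries below both untreated ones, with a log2 change of -0.29 (SE 0.188, adjusted p = 0.445). The log2 changes of Dynll2, Dynlrb1 and Dynlt1b were 0.03, -0.04 and 0.10, and each changed sign in some fit that left out a library. With 6 genes and a background of 2.94%, a count of 0 is close to what the whole table gives.

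Among dynactin and the regulators, Ckap5 had the largest change in wild-type cells. It had 236 and 239.7 CPM in treated cells, against 73.1 and 101 CPM in untreated ones, so even the lower treated library was far above the higher untreated one. Its log2 change was 1.45 (SE 0.200, adjusted p = 0.00316), a 2.74-fold rise, and the call held in all 14 alternative fits, as did that of Dync1h1. No other regulator passed. Numa1, which anchors dynein at spindle poles, had 122 and 148 CPM against 96.4 and 119 CPM, with a log2 change of 0.33 (SE 0.137, adjusted p = 0.206). Map4, a general microtubule stabiliser, had 682 and 733 CPM against 593 and 616 CPM, with a log2 change of 0.23 (SE 0.112, adjusted p = 0.296). The end-binding protein Mapre1 (0.11), the plus-end stabilisers Clasp1 (0.18) and Clasp2 (-0.04) and the spindle protein Psrc1 (-0.10) had smaller log2 changes, none of which passed. Dctn1, the dynactin arm that touches the microtubule, had 109 and 111 CPM against 92.7 and 81.8 CPM, a log2 change of 0.34 (SE 0.113, adjusted p = 0.115), and the 6 dynactin subunits had a median of 0.00.

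In Gcn2 knockout cells 9 of the 59 tested genes changed with dTAG-13, in both directions. Dync1h1, Kif16b and Kif20b rose, and Kif5b, Kif1b, Kif3b, Kif11, Dync1i2 and Clasp2 fell. The shares were 5.08% that rose and 10.2% that fell, beside 3.16% and 5.71% of all genes tested. At an unadjusted p under 0.05 there were 17, 8 above 0 and 9 below, beside 3004 of all 12267 genes (1486 above and 1518 below). These calls rest on all 4 knockout libraries. Leaving out any 1 of them gave fewer calls among these genes and fewer over the whole table too, so the loss is not particular to this group.

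Dync1h1 had 175 and 206 CPM in treated knockout cells, against 145 and 112 CPM in untreated ones. The groups were apart, though closer than in wild type, and the log2 change was 0.56 (SE 0.1399, adjusted p = 0.0243), a 1.48-fold rise. Kif16b, a motor of early endosomes, had 41.8 and 41.0 CPM against 27.5 and 29.1 CPM, with a log2 change of 0.55 (SE 0.129, adjusted p = 0.0189). Kif20b had 104 and 106 CPM against 76.8 and 58.1 CPM, with a log2 change of 0.64 (SE 0.154, adjusted p = 0.0221). Each lost its call in 3 or 4 of the 8 fits that left out a library, all of them knockout libraries, with adjusted p up to 0.351. Ckap5 had 175 and 168 CPM in treated against 132 and 83.7 CPM in untreated knockout cells. Its treated libraries were both higher, but the untreated ones differed widely, and the log2 change of 0.67 (SE 0.197) had an adjusted p of 0.0586. DESeq2 called it, as did 4 of the 8 fits that left out a library.

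Transport motors made up 3 of the 6 genes that fell in knockout cells. Kif5b had 121 and 114 CPM in treated knockout cells, against 207 and 174 CPM in untreated ones. Its log2 change was -0.69 (SE 0.119, adjusted p = 0.00341), and only the fit without treated replicate B lost the call (adjusted p = 0.0709, range over all alternatives 2.28e-06 to 0.0709). Kif1b had 21.2 and 18.5 CPM against 34.6 and 31.4 CPM (log2 change -0.74, SE 0.146, adjusted p = 0.0079). Kif3b, a motor of the kinesin-2 complex that serves cilia, had 8.51 and 9.75 CPM against 15.8 and 14.04 CPM (log2 change -0.71, SE 0.178, adjusted p = 0.0265). In each of these, every treated library was lower than every untreated one. Over the 13 transport kinesins tested, 1 rose (7.69%) and 3 fell (23.1%), beside 3.16% and 5.71% of all genes tested. In 6 the log2 change was above 0 and in 7 below, with a median of -0.06, while 54.5% of all genes were above 0. Kif21a had 0.774 and 0.824 CPM against 1.45 and 1.398 CPM, and its log2 change of -0.83 rested on few counts (SE 0.3697, adjusted p = 0.19).

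Kif11 had 129 and 121 CPM in treated knockout cells, against 225 and 172 CPM in untreated ones, with a log2 change of -0.67 (SE 0.134, adjusted p = 0.00846). Dync1i2 had 78.7 and 72.8 CPM against 127 and 107 CPM, with a log2 change of -0.63 (SE 0.121, adjusted p = 0.00673). Clasp2 had 41.6 and 42.6 CPM against 63.6 and 55.1 CPM, with a log2 change of -0.49 (SE 0.123, adjusted p = 0.0247). These genes stood level in wild-type cells, but the difference between the genotypes did not pass the test (given below for each). Of the 11 mitotic kinesins, 1 rose and 1 fell (9.09% each, beside the 3.16% and 5.71% of all genes), 9 had a log2 change above 0 and 2 below, and the median was 0.17. Under DESeq2's size factors 8 of the 11 were above 0. Kif4, called in wild-type cells, had 46.4 and 41.1 CPM against 49.0 and 32.3 CPM, with overlapping groups and a log2 change of 0.10 (SE 0.202, adjusted p = 0.812). Kif23 and Kif15 had log2 changes of 0.38 and 0.40, with adjusted p of 0.298 and 0.104.

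Short light chains in treated knockout cells mostly stood a little higher, and none passed the test. Dynll1 had 291 and 291 CPM in treated knockout cells, against 213 and 240.5 CPM in untreated ones, with a log2 change of 0.36 (SE 0.128, adjusted p = 0.104). Dynll2 had 147 and 152 CPM against 134.5 and 129 CPM, with a log2 change of 0.18 (SE 0.199, adjusted p = 0.626). Dynlrb1 had 117 and 113 CPM against 109 and 89.8 CPM, and Dynlt1b had 12.98 and 12.6 CPM against 9.95 and 9.56 CPM. In 5 of the 6 both treated libraries were above both untreated ones, as in 32.5% of all genes tested, while 27.0% had both lower. The exception was Dynlt3, with 9.80 and 10.4 CPM in treated against 10.9 and 10.3 CPM in untreated cells. Their log2 changes ran from -0.07 to 0.39, 1 of the 6 had an unadjusted p under 0.05, and DESeq2 called none. Dynactin subunits had log2 changes from -0.39 to 0.21 with none called, though DESeq2 called Dctn3 and Dctn6 as fallen.

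Among the other dynein chains and regulators, the following did not pass in knockout cells. Dync1li1 had 197 and 181 CPM in treated knockout cells, against 159.8 and 155 CPM in untreated ones (log2 change 0.27, SE 0.109, adjusted p = 0.152), and Dctn1 had 129.9 and 125.5 CPM against 112 and 109 CPM (0.21, adjusted p = 0.264). Both had higher values in each treated library, as they did in wild-type cells. Log2 changes were 0.22 for Numa1 (adjusted p = 0.352), 0.13 for Map4 (adjusted p = 0.53) and 0.20 for Mapre1 (adjusted p = 0.3), each with both treated libraries above both untreated ones. Clasp1 had 40.4 and 38.6 CPM against 48.98 and 45.1 CPM, lower in each treated library, with a log2 change of -0.25 (adjusted p = 0.245). Psrc1 overlapped between the groups at 115 and 113 CPM against 139.7 and 113 CPM, with a log2 change of -0.14 (adjusted p = 0.541).

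**Figure D2:**
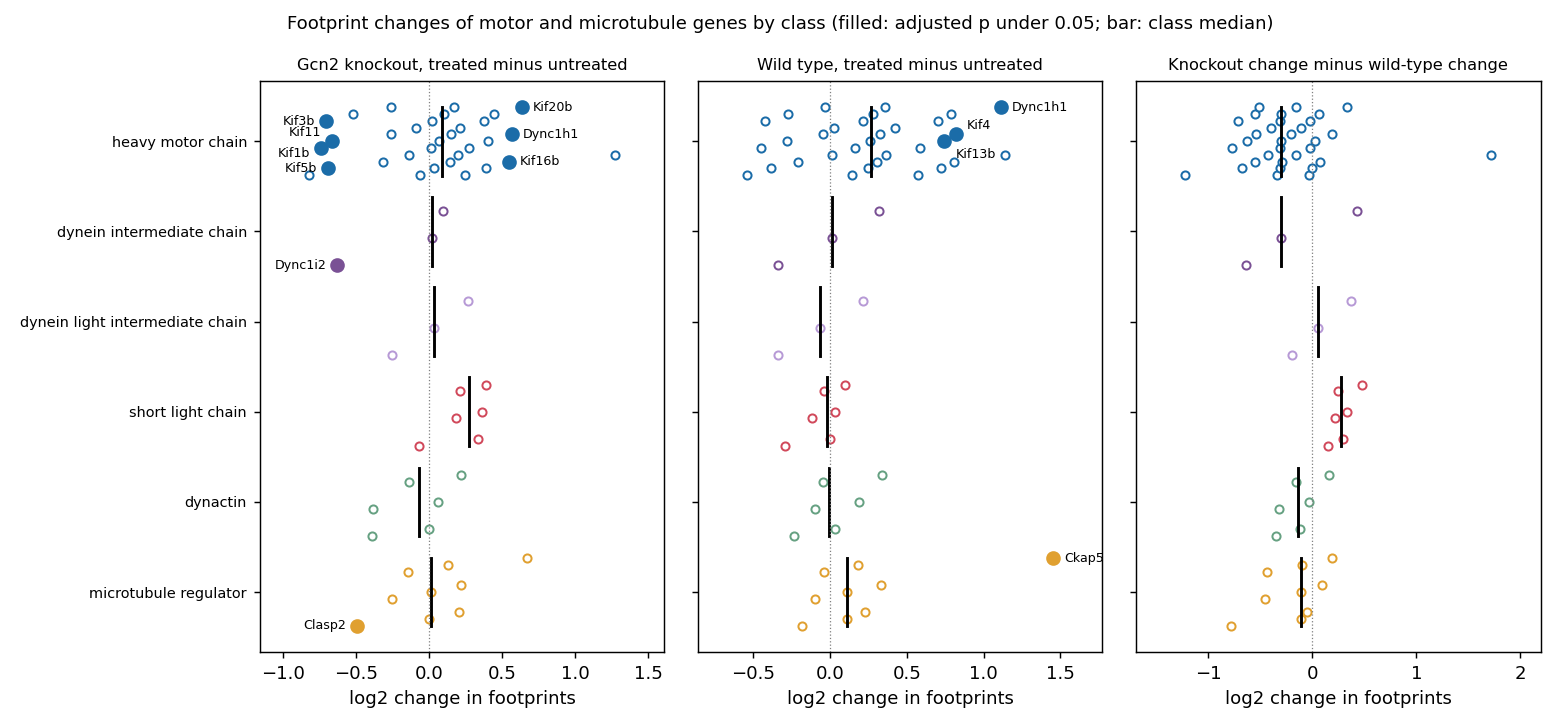
Log2 footprint change (horizontal axes) of the tested genes by class, for knockout cells, wild-type cells and the difference between them. Points are genes, filled where the adjusted p was under 0.05, and black bars are class medians. Heavy chains spread on both sides of 0 in knockout cells and mostly above it in wild-type cells, while the 6 short light chains lie close together.

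Set against each other, heavy chains stood above light chains in wild-type cells and below them in knockout cells, by amounts near the spread between libraries. In wild-type cells the median log2 change was 0.27 over 32 heavy chains and -0.02 over 6 light chains, a gap of 0.29, beside a median of -0.01 for all genes tested. In knockout cells the medians were 0.09 and 0.27, a gap of -0.18, beside 0.04 for all genes. The gap's spread between replicate libraries was 0.162 (SD on the log2 scale), and no test was made over the lists because their members were chosen with results of these data known. The wild-type gap was 0.10 without treated replicate B, 0.18 without untreated replicate A, and 0.45 and 0.46 without treated replicate A and untreated replicate B. The knockout gap was -0.06 without treated replicate A and -0.12 without untreated replicate A. Setting aside the light chains with near-identical copies (Dynll1, Dynll2 and the Dynlt1 series) gave a gap of 0.31 in wild-type and -0.12 in knockout cells. The light chain median then rested on Dynlrb1, Dynlt2b and Dynlt3 alone.

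The heavy chains were also far from uniform. Their log2 changes ran from -0.54 to 1.14 in wild-type cells, where 18 of 32 had both treated libraries above the untreated ones, 6 had both below and 8 overlapped, beside 22.3% of all genes with both above and 22.8% with both below. In knockout cells they ran from -0.83 to 1.28, and the same counts were 12, 9 and 11, near the shares of all genes (32.5% with both above and 27.0% with both below). The extremes belonged to genes with few counts: Kif9 in wild-type and Kif26a in knockout cells were each under 2 CPM in every footprint library. Summed over the class, heavy chains had 3.09 and 3.05 times the CPM of the light chains in treated knockout libraries, against 3.82 and 3.30 in untreated ones. In wild-type cells the ratio was 3.30 and 4.21 in treated against 2.38 and 3.30 in untreated libraries, and in RNA 5.82 and 5.72 in treated against 5.35 and 5.99 in untreated ones. This sum used 32 heavy and 5 light chains found in both tables. The treated and untreated ranges met or overlapped in wild-type footprints and in RNA, and were apart in knockout footprints only.

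The difference between the genotypes' changes was tested in the same edgeR fit, and none of the 59 genes passed, beside 0.0489% of all genes tested (6 of 12267). At an unadjusted p under 0.05 there were 9, beside 1229 of all genes, and DESeq2 called none, beside 110 of all genes. Without the filter on low counts 2 passed in edgeR, Ckap5 (adjusted p = 0.00683) and Kif11 (adjusted p = 0.0312), beside 192 of all genes. With the replicate letter as a block within each genotype 6 passed, beside 733 of all genes. In the main fit Dync1i2 had the smallest p, with a knockout minus wild-type difference of -0.64 on the log2 scale (SE 0.170, unadjusted p = 0.00245, adjusted p = 0.242). Kif11 followed with -0.68 (SE 0.188, adjusted p = 0.248), then Dync1h1 with -0.55 (SE 0.197, adjusted p = 0.359) and Ckap5 with -0.79 (SE 0.279, adjusted p = 0.365). Kif4 had -0.72 (adjusted p = 0.421), Clasp2 -0.45 (adjusted p = 0.395) and Dynll1 0.48 (adjusted p = 0.394). In the main fit the calls made in 1 genotype alone are thus not shown to differ between genotypes, and other settings gave from no call to the few above.

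By direction, 26 of the 32 heavy chains had a difference below 0 and all 6 tested light chains had one above 0, beside 50.6% of all genes above 0. The medians were -0.30 and 0.27, a gap of -0.58, and -0.32 without treated wild-type replicate B. Without that library or without untreated wild-type replicate A, 5 of the 6 light chains were above 0. The untreated libraries enter this difference too. Knockout minus wild type there, 1 of the 6 light and 16 of the 32 heavy chains were above 0, beside 48.8% of all genes. Across the 59 genes the changes in the genotypes, which share no libraries, had a Pearson correlation of 0.452, as a description, close to the 0.455 over all 12267 genes. In 28 genes both changes were above 0 and in 13 both were below. The same counts were not made over all genes, so these cannot be set against the whole table.

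**Figure D3:**
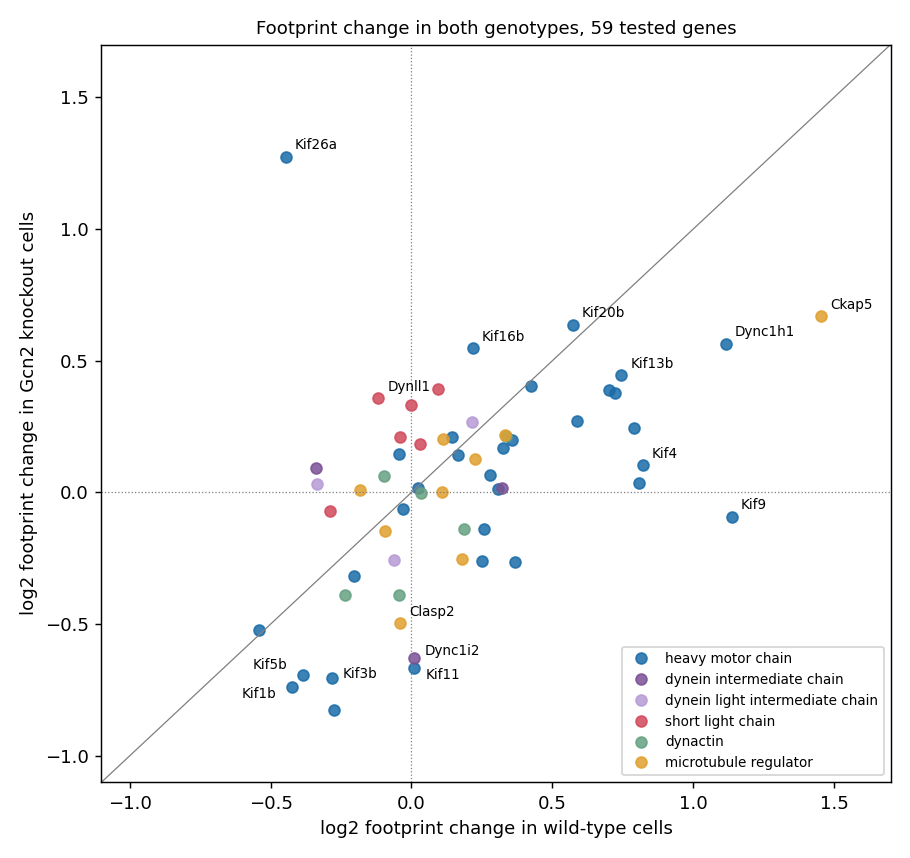
Log2 footprint change in knockout cells (vertical axis) against that in wild-type cells (horizontal axis) for 59 tested genes, coloured by class, with the diagonal of equal change. Ckap5 and Dync1h1 lie far to the right and below the diagonal, and the 6 short light chains lie together above it.

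Without treatment the 2 genotypes differed in none of these genes by edgeR (0.00815% of all genes tested, which is Eif2ak4 alone). At an unadjusted p under 0.05 there were 5, beside 733 of all genes. DESeq2 called 2, Psrc1 and Kif18b, beside 30 of all genes. Psrc1 had 140 and 113 CPM in untreated knockout cells, against 77.9 and 68.1 CPM in untreated wild-type cells, a log2 difference of 0.79 (SE 0.1297, adjusted p = 0.119). Kif18b, a motor that shortens microtubule ends, had 90.4 and 76.6 CPM against 57.0 and 55.6 CPM, a log2 difference of 0.57 (SE 0.120, adjusted p = 0.249). Dynll1 had 213 and 240.5 CPM against 326 and 282 CPM, a log2 difference of -0.42 (SE 0.128, adjusted p = 0.679). In each of these genes the groups did not overlap. Over the 59 tested genes the groups overlapped in 41, while both knockout libraries were higher in 11 and lower in 7. The share over all genes was not counted, so these counts cannot be set against the whole table, nor can the gaps of the 3 genes above. Heavy and light chains had median differences of 0.00 and -0.07.

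In RNA from wild-type cells none of 58 tested genes passed, beside 0.163% of all 15955 genes tested. At an unadjusted p under 0.05 there were 4, beside 818 of all genes, DESeq2 called none, and log2 changes lay between -0.25 and 0.51. Dync1h1 had 729 and 696 CPM of RNA in treated cells, against 614 and 697 CPM in untreated ones, with a log2 change of 0.12 (SE 0.048, adjusted p = 0.93). Ckap5 had 274.5 and 284 CPM against 259 and 262.5 CPM, with a log2 change of 0.10 (SE 0.047, adjusted p = 0.94). Dynll2 (-0.13, adjusted p = 0.93) and Kif18a (-0.16, adjusted p = 0.94) were the other 2 genes with a small unadjusted p. Without untreated RNA replicate B, Dync1h1 and Dynll2 passed, with log2 changes of 0.22 and -0.18 and adjusted p of 1.29e-06 and 0.0222.

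Translational efficiency, the footprint change relative to the RNA change in 1 model of the wild-type libraries, rose for Ckap5 and Dync1h1. Those were 2 of 58 genes tested (3.45%), beside 0.773% of all 12807 genes that rose and 0.695% that fell. None of the 58 fell. At an unadjusted p under 0.05 there were 14, 12 above 0 and 2 below, beside 1840 of all genes (940 above and 900 below). DESeq2 called 4 that rose and 0 that fell, beside 439 of all genes in either direction. The log2 change in efficiency was 1.35 for Ckap5 (SE 0.179, adjusted p = 0.0105) and 0.99 for Dync1h1 (SE 0.143, adjusted p = 0.0172). The ratio of mean footprint CPM to mean RNA CPM was 0.853 for Ckap5 in treated against 0.333 in untreated cells, and 0.364 for Dync1h1 in treated against 0.182 in untreated cells. Leaving out any RNA library ended both calls, and then 0 of all genes passed. Their adjusted p was then 0.111 to 0.179, while the log2 changes stayed between 0.90 and 1.37. Kif4 (0.82, adjusted p = 0.0748) and Kif13b (0.68, adjusted p = 0.101) did not pass. Counts per gene, scaled to each library, do not show where on an mRNA the footprints lay. Efficiency as defined here is therefore a ratio of library shares, not a measured rate of translation.

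Across classes, the median change in efficiency was 0.25 over 31 heavy chains and 0.00 over 8 light chains, beside 0.00 for all genes, while RNA medians were 0.00 and -0.01. The efficiency gap of 0.25 was 0.13 without treated footprint replicate B, 0.40 without untreated footprint replicate B and 0.12 with DESeq2, where the light chain median was 0.14. Of the 8 light chains, Dynlt1c and Dynlt1f had 0 footprint counts in every library, so their efficiency values carry no information. The gap was 0.40 with all light chains that have near-identical copies set aside, which leaves only Dynlrb1 and Dynlt3. All 11 mitotic kinesins, listed after the values had been seen, had an efficiency change above 0, beside 49.5% of all genes, with a median of 0.44. Kif11 (0.07) turned to just below 0 without untreated footprint replicate A or untreated RNA replicate B. Its mean footprint CPM was 17.6 times its RNA CPM in treated and 16.75 times in untreated cells, for a reason that was not tested, so its efficiency value is uncertain. RNA changes of the 11 had a median of 0.00, with 7 above 0 and 4 below.

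**Figure D4:**
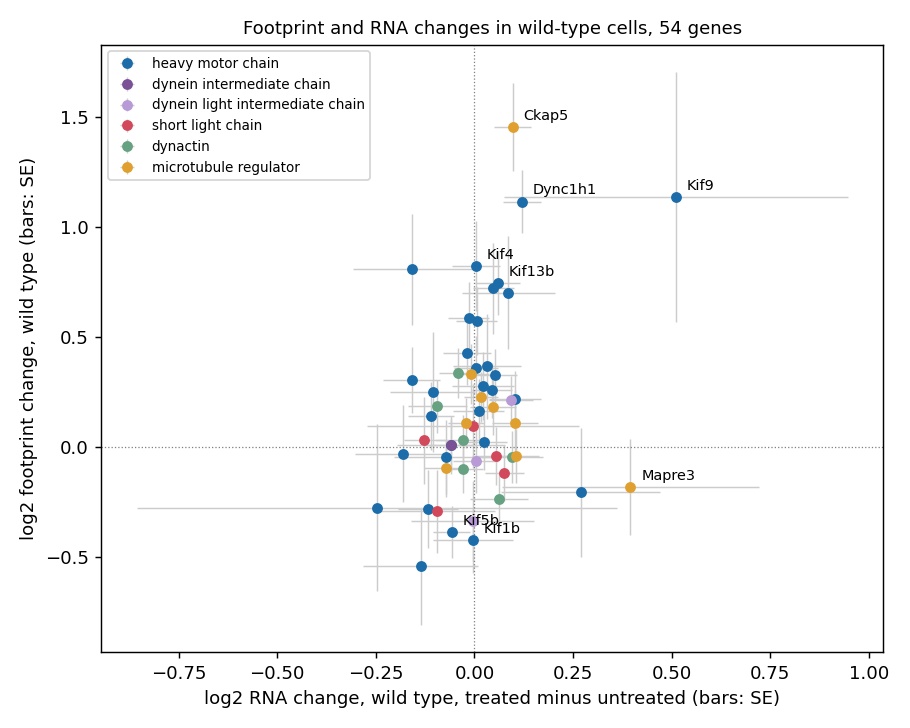
Log2 footprint change (vertical axis) against log2 RNA change (horizontal axis) in wild-type cells for 54 genes tested in both, with bars of 1 SE. Most genes lie near 0 on the RNA axis, and Ckap5 and Dync1h1 stand out on the footprint axis alone, while the wide bars of Kif9 and Mapre3 go with low counts.

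Genes around these motors were counted from lists of tubulins, kinesin partners, dynein adaptors and spindle factors. The shares of all genes tested that rose and fell were 3.16% and 5.71% in knockout cells and 2.94% and 1.94% in wild-type cells. Of 14 tubulins tested, 2 rose in knockout and 2 in wild-type cells (14.3% in each), and none fell, with medians of 0.25 and 0.36. Tuba1c was called in both genotypes, with 107 and 117 CPM in treated against 55.4 and 66.2 CPM in untreated knockout cells, and 110.0 and 115 CPM in treated against 55.4 and 75.0 CPM in untreated wild-type cells. Its log2 change was 0.88 in knockout cells (SE 0.150, adjusted p = 0.00324) and 0.79 in wild-type cells (SE 0.150, adjusted p = 0.0109). Of 52 spindle and nucleation factors, 2 rose (3.85%) and 3 fell (5.77%) in knockout cells, which is near the shares of all genes, and 4 rose (7.69%) and 1 fell (1.92%) in wild-type cells. Aspm, a spindle pole protein, was called in both, with a log2 change of 0.70 in knockout cells (SE 0.184, adjusted p = 0.0348) and 1.03 in wild-type cells (SE 0.185, adjusted p = 0.00831). Haus6, a subunit of the augmin complex that branches spindle microtubules, fell by 1.01 on the log2 scale in knockout cells (SE 0.142, adjusted p = 0.00104).

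Of 25 dynein adaptors and regulators, 3 fell in knockout cells (12%, beside 5.71% of all genes) and 1 fell in wild-type cells (4%, beside 1.94%), and none rose. Pafah1b1, the dynein regulator Lis1, had 54.7 and 53.0 CPM in treated against 103 and 84.5 CPM in untreated knockout cells. It fell by 0.80 on the log2 scale (SE 0.132, adjusted p = 0.00268). Nde1, which recruits Lis1 to dynein, fell in both genotypes, by 0.45 (SE 0.122, adjusted p = 0.0368) in knockout and by 0.49 (SE 0.123, adjusted p = 0.0407) in wild-type cells. Among 10 kinesin light chains and C-terminal kinesins, Klc1, the cargo-binding partner of Kif5b, fell in knockout cells (log2 change -0.56, SE 0.159, adjusted p = 0.046), and none passed in wild-type cells. The list medians were 0.05 for adaptors and -0.06 for kinesin partners in knockout cells, and 0.02 and -0.08 in wild-type cells.

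The rest of the 82 were not tested in footprints. Dynlt1-ps1, Kif16bos, Kif22-ps and Kif4-ps were in the RNA table only, where Dynlt1-ps1 alone of the 4 passed the filter (log2 change 0.04, adjusted p = 0.993). A further 19 genes failed the filter on low footprint counts, among them the neuronal motor Kif1a (0.258 to 0.613 CPM), the intermediate chain Dync1i1 (at most 0.549 CPM), and Kif12 and Kif2b, with 0 counts in all 12 libraries. Several light chains had 0 footprint counts in all 8 libraries as well, among them Dynlt1c and Dynlt1f. Dynlt1f had 11.2 and 10.7 CPM of RNA in treated against 10.5 and 12.9 CPM in untreated wild-type cells. Dynlt1a to Dynlt1f and the pseudogene Dynlt1-ps1 are near-identical copies, so counts may have been divided among them differently in the 2 tables, and their values are uncertain.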

How the data were processed

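The deposited tables gave unnormalized counts for 22034 symbols in footprints and 49997 in RNA, with a column for each library. Per the submitters' processing notes the tools were CASAVA 1.4, cutadapt and HISAT2 2.1.0, and the build was mm10. The tool, annotation, handling of multiple matches and use of strand in counting were not given in the sources used here. Columns were matched to samples by title. For replicate B of the treated knockout cells the sample description names the column of A, and the title's letter was used instead.

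Counts were tested with edgeR 4.0.16 in R 4.3.3, with filterByExpr at a minimum count of 10, TMM scaling and a robust quasi-likelihood fit, two-sided, adjusted by Benjamini-Hochberg over all genes tested at 0.05. The 8 footprint libraries shared 1 fit by group (4 residual degrees of freedom, biological coefficient of variation 0.116), the 4 RNA libraries another (2 residual degrees of freedom, 0.0434). Efficiency was tested as the assay-by-treatment interaction in all 8 libraries of wild-type cells, scaled within each assay. Each SE is the log2 change divided by the root of its F value. CPM used the TMM library sizes. RNA symbols were joined by name (20050) or RefSeq synonym (84), and 1900 footprint symbols were not joined. The scripts were tested on simulated counts. DESeq2 1.42.0 was an alternative, among those in the closing section.

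The genes and lists were chosen with earlier results of these data known. A list of 25 genes is given for treated against untreated footprints in both genotypes where tested, and for other comparisons only in part. Every gene of the 82 that passed in the main fits is given, plus the 3 with the smallest p where under 3 passed. Genes of the surrounding lists that passed are named only in part. Others named were chosen after their values were seen. Comparisons per coding length and lists matched on protein length were not run, since no protein table was used here, so levels are compared only within a gene or as ratios between libraries. Intervals are not given for counts, since replicate spread exceeded counting error.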

Additional observations from a re-analysis of the deposited data

How the results depend on the processing

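Calls depended on the tool, the filter and single libraries more than on the scaling. Of the genes that passed, Dync1h1 and Ckap5 kept their wild-type footprint calls in all 14 alternatives. With DESeq2, 7 of the motor and microtubule genes passed in wild-type footprints, 2 between untreated genotypes and 4 for efficiency. The same tool called 775 genes of the whole table in wild-type footprints and 110 for the difference between genotypes. It called 30 between untreated genotypes, 8 in RNA and 439 for efficiency. Without the filter on low counts these genes gave 9 calls in wild-type footprints, 2 for the difference, 2 between untreated genotypes and 5 for efficiency, and the table of all genes gave 1048 in wild-type and 1658 in knockout footprints, 192 for the difference, 113 between untreated genotypes and 452 for efficiency. With the other genotype left out of the fit, wild-type footprints gave 2 of these genes and 19 in all, and knockout footprints 14 and 1893. For genes of average log2 CPM of at least 3, the heavy minus light gap in RNA was 0.0962. The cause of these shifts was not tested.

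The labels give no batch for the letters A and B, and the main fits did not pair libraries by letter. Deviations of A from B in treated and untreated libraries correlated at 0.49 in wild-type footprints, 0.101 in knockout footprints and 0.015 in RNA. With the replicate block, these genes gave 9 calls in wild-type footprints, 1 between untreated genotypes and 15 for efficiency, and all genes gave 931 in wild-type footprints, 39 for the difference, 14 between untreated genotypes, 16 in RNA and 1532 for efficiency. With the replicate block within genotype, they gave 16 calls in wild-type and 18 in knockout footprints, 6 for the difference and 6 between untreated genotypes, and all genes gave 2109, 3149, 733 and 301. The untreated gap was then 0.24.

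With 1 library left out at a time, the motor and microtubule genes called ranged from 2 to 8 in wild-type footprints, 0 to 11 in knockout footprints, 0 to 1 between untreated genotypes, 0 to 2 in RNA and 0 to 7 for efficiency. All genes called ranged from 197 to 659, 215 to 1353, 1 to 10, 14 to 267 and 0 to 671 in the same order, and from 0 to 32 for the difference. The heavy minus light gap ranged from 0.10 to 0.46 in wild-type footprints, -0.73 to -0.32 for the difference and -0.074 to 0.10 in RNA. A group left with 1 library is assumed to vary like the others.

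Some log2 values near 0 changed sign. Without the filter, Kif11 (-0.005) and Dync1i2 (-0.0053) did so in wild-type footprints. With 1 library left out, wild-type footprint values ran from -0.0611 to 0.0864 for Kif11, -0.0297 to 0.0518 for Dync1i2, -0.2657 to 0.0231 for Dynll1, -0.2631 to 0.4011 for Dynll2, -0.1612 to 0.069 for Dynlrb1, -0.0979 to 0.3049 for Dynlt1b and -0.1887 to 0.0071 for Psrc1. Knockout footprint values ran from -0.1665 to 0.4356 for Kif4 and -0.2914 to 0.0175 for Psrc1. The difference between genotypes ran from -0.1237 to 0.2797 for Kif20b, and efficiency from -0.0508 to 0.1836 for Kif11. Comparisons per coding length and with lists matched on protein length were not run.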

Other observations

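Footprint and RNA levels of Kif11 stood far apart. The mean footprint CPM was 17.6 times the mean RNA CPM in treated wild-type cells and 16.7 times in untreated ones, against 0.765 and 0.436 for Kif4. Its RNA was 10.4 and 10.3 CPM in treated and 9.95 and 11.7 CPM in untreated libraries.

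The light chain Dynlt1b showed a ratio of 4.71 in treated and 4.31 in untreated wild-type cells, while Dynlt1a, Dynlt1c and Dynlt1f, its near-identical copies, had RNA counts and few or no footprint counts. The pseudogene Dynlt1-ps1, in the RNA table only, had 228 and 224 CPM in treated and 217 and 223 CPM in untreated libraries.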
